A study of Mus musculus with 4 samples.

Results

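The 9 genes for secreted antimicrobial and complement proteins Lyz1, Lyz2, Lcn2, Slpi, Chil1, Ltf, C3, Cfb and C4b were taken by symbol from the gene count table of alveolar type II (AT2) cells, and all 9 were found among its 40092 genes. Of these, 8 passed the filter on low counts, which left 16661 genes for testing. Cfb did not pass and is given by its counts. The cells came from mice that carried Sftpc-CreERT2 and the Rosa26-mTmG reporter, in which tamoxifen switches Cre on in cells that use the promoter of the surfactant gene Sftpc and turns their membrane label to green. The 2 Ctrl libraries came from Alkbh5flox/+ mice and the 2 A5-CKO libraries from Alkbh5flox/flox mice. The controls thus also carried a floxed allele and were not plain wild type. Alkbh5 encodes an eraser of N6-methyladenosine on RNA. Both groups received tamoxifen and bleomycin, a drug that injures the alveolar epithelium, and GFP+ cells were sorted on day 14 after bleomycin. No library of uninjured cells or of mice without tamoxifen was analysed here, and the age and sex of the mice are not given in the sources used here.

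AT2 cells make surfactant and act as progenitors of the alveolar epithelium. They also take part in innate defence, since they release collectins, lysozyme and complement proteins into the fluid that lines the alveoli. Lysozymes cut the peptidoglycan of bacterial walls, lipocalins and lactoferrin withhold iron from microbes, antiproteases shield the tissue from neutrophil enzymes, and complement proteins tag microbes and set off inflammation once they are cleaved.

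The libraries held 18144865 to 20811757 counts, and TMM factors (which rescale libraries for composition) ran from 0.860 to 1.13. Levels below are TMM-scaled CPM (counts scaled to libraries of equal size), always in the order Ctrl 1, Ctrl 2, A5-CKO 1, A5-CKO 2. Alkbh5 stood at 81.7, 152, 19.3 and 36.6 CPM, lower in both A5-CKO libraries, with a log2 fold change of -2.06 (SE 0.46, edgeR adjusted p = 0.528, unadjusted p = 0.00279). All 11 AT2 markers were detected, with a summed level of 57116, 82898, 42830 and 35236 CPM. The summed macrophage markers stood at 2917, 479, 266 and 2279 CPM and the summed plasma and B cell markers at 2203, 412, 546 and 2316 CPM, so that Ctrl 1 and A5-CKO 2 were set apart from Ctrl 2 and A5-CKO 1 irrespective of genotype. Of 4 Y-linked genes none exceeded 3 counts in any library, and Xist, the RNA that coats the inactive X chromosome, stood at 149, 123, 805 and 390 CPM, higher in both A5-CKO libraries (log2 fold change 2.14, edgeR adjusted p = 0.528, unadjusted p = 0.00194). With 2 libraries a group the smallest two-sided exact permutation p is 0.333. A fall of RNA per cell cannot be told apart from fewer cells that hold it.

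Lyz1 and Lyz2 are near-identical genes, and their sequences bear on how far their counts can be separated. Lyz1 (NCBI gene 17110) spans chr10:117287795-117292868 and Lyz2 (NCBI gene 17105) spans chr10:117277541-117282272 (GRCm38.p6), both on the minus strand and both with 4 exons. Their longest transcripts in GENCODE M21 were 96.0% identical, and 2.06% of the 100-base windows of Lyz1 also occurred in Lyz2. The coding sequences had 444 bases each, of which 22 differed. Of these, 14 fell within the first 150 coding bases, printed here with the differing bases in capitals.
Lyz1: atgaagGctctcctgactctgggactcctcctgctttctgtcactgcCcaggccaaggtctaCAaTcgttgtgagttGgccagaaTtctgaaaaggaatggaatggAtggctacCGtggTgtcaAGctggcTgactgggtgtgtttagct
Lyz2: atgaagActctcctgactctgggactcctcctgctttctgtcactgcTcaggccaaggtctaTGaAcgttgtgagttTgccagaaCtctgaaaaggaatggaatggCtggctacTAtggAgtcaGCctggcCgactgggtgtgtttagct
The 150 bases before the start of each gene (RefSeq, GRCm38.p6, chr10:117292869-117293018 for Lyz1 and chr10:117282273-117282422 for Lyz2, minus strand) differed at 21 positions when laid side by side without gaps, again in capitals. Only 1 of the 21 lay in the 60 bases next to the start.
Lyz1 upstream: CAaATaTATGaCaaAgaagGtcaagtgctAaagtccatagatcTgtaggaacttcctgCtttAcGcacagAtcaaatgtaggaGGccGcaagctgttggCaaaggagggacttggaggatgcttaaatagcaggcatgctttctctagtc
Lyz2 upstream: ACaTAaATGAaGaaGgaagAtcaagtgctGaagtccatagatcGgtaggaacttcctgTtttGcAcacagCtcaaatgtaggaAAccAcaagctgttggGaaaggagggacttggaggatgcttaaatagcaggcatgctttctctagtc

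RefSeq promoters were found for 7 of the 9 members and not for Cfb or C4b. The letters TTGCNNAA, a short form of the site bound by C/EBP factors, were searched on both strands over the 250 bases before each start. They occurred in Lyz1, Lcn2, Slpi, Ltf and C3, that is in 5 of the 7, against 9.56% of 32851 promoters of the same length. A looser NF-kB motif occurred in Lcn2, Chil1, Ltf and C3, but also in 45.8% of all promoters. The 150 bases before the starts of Ltf (chr9:111019142-111019291, plus strand) and C3 (chr17:57228137-57228286, minus strand) are printed because their C/EBP letters, in capitals, lie closest to the start.
Ltf upstream: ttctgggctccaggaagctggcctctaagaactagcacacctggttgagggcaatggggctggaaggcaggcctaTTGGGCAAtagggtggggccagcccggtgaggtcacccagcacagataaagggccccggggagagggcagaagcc
C3 upstream: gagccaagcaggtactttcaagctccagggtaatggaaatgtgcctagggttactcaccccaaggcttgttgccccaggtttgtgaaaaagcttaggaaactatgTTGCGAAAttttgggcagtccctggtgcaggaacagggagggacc
The match lay at -75 to -68 in Ltf, on the strand opposite to the gene, and at -45 to -38 in C3. A match is a description of the sequence, and binding was not measured.

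To compare genes with one another, CPM was divided by the length of the longest transcript. Lyz2 had the highest mean level of the members, 8257 CPM per kb, and ranked at place 2 of 15237 tested genes with a known length. Chil1 followed at 4216 CPM per kb (place 5), Lcn2 at 3173 (place 11) and Lyz1 at 1179 (place 28). Lyz2 was above Chil1 in each of the 4 libraries, although their ranges met (5690 to 11268 for Lyz2 and 2334 to 5728 for Chil1). Chil1 and Lcn2 did not differ beyond their spread, since Lcn2 was the higher of the pair in A5-CKO 2 and the lower elsewhere. Slpi (221 CPM per kb) and C3 (193 CPM per kb) came next and also overlapped, Slpi being the higher in Ctrl 1 and A5-CKO 2 and C3 in Ctrl 2 and A5-CKO 1. Ltf had a mean of 16.2 CPM per kb, and C4b (1.81) and Cfb (0.171) were the lowest, with ranges that met. The low values of C4b and Cfb cannot be read as low expression, as described further on. Together the 9 genes took 2.70, 2.77, 2.16 and 1.82% of all counts, and Lyz2 and Chil1 gave between 72.9 and 78.6% of that.

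**Figure D1:**
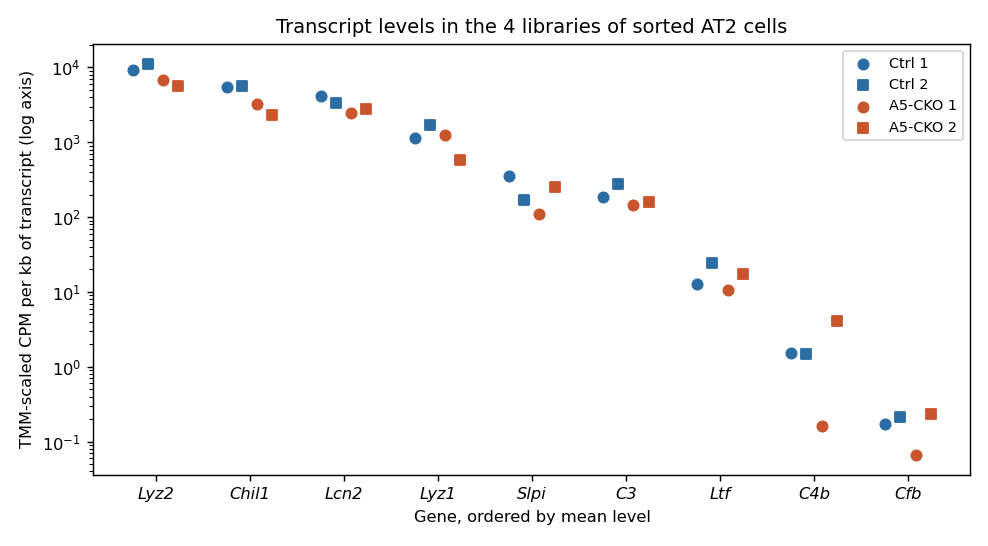
TMM-scaled CPM per kb of the longest transcript (log axis) for the 9 genes, 1 point per library, circles for replicate 1 and squares for replicate 2. The genes span from about 8257 CPM per kb on average for Lyz2 to 0.171 for Cfb, and both A5-CKO libraries lie below both Ctrl libraries for Lyz2, Chil1, Lcn2 and C3. The low values of Cfb and C4b cannot be read as low expression.

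Between genotypes, none of the 8 tested members passed an edgeR adjusted p of 0.05, nor did any of the 16661 genes, a share of 0% of those tested. At an unadjusted p under 0.05 this edgeR fit called no member, against 4.48% of genes higher and 4.71% lower in A5-CKO. DESeq2 on the same genes called 55 genes (0.33%) at an adjusted p under 0.05, and no member was among them. Its unadjusted p was 0.00607 for Chil1 and 0.0355 for Lyz2. The unadjusted p of Chil1 was 0.0224 with limma voom, 0.0296 with edgeR's robust fit and 0.0254 with edgeR and no filter. That of Lyz2 was 0.0655, 0.0784 and 0.0627 in the same 3 fits. Whether Chil1 and Lyz2 fell under an unadjusted 0.05 thus depended on the tool and, for Chil1, also on the settings of edgeR. The log2 fold change was below 0 in 7 of the 8 members (1 of the 8 when libraries were scaled on AT2 markers, as described further on), against 50.9% of all genes, with a median of -0.57 against -0.02 over all genes. In 4 of the 8, Lyz2, Chil1, Lcn2 and C3, both A5-CKO libraries were below both Ctrl libraries, against 23.5% of all genes, and no member showed the opposite order, against 20.3%. The members vary together in part, so these counts are not separate pieces of evidence.

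Among the lysozymes, Lyz2, the form typical of myeloid cells and also made by AT2 cells, stood at 12318, 14828, 8828 and 7488 CPM. Both A5-CKO libraries were below both Ctrl libraries, with means of 13573 ± 1775 and 8158 ± 947 CPM (SD, n = 2). The log2 fold change was -0.73 (SE 0.44, edgeR adjusted p = 0.578). The summed macrophage markers given above were high in Ctrl 1 and A5-CKO 2, whereas Lyz2 was highest in Ctrl 2 and lowest in A5-CKO 2, and their part in the Lyz2 values was not tested. Lyz1, the form best known from Paneth cells of the gut, stood at 1461, 2182, 1581 and 732 CPM. The Lyz1 groups overlapped, because A5-CKO 1 lay above Ctrl 1, and the log2 fold change was -0.66 (SE 0.49, edgeR adjusted p = 0.645). Without A5-CKO 1 the Lyz1 value was -1.33, without A5-CKO 2 it was -0.24, and without Ctrl 2 it was -0.39. Lyz1 made up 10.6, 12.8, 15.2 and 8.90% of the counts of both lysozymes (Wilson 95% intervals 10.5 to 10.7, 12.7 to 12.9, 15.0 to 15.3 and 8.78 to 9.03%). The intervals cover counting error only and take every count as independent. The reads were paired-end, and whether both mates of a pair were counted separately is not given in the sources used here. The highest and the lowest of these shares were both from A5-CKO mice, so the genotype groups overlapped (exact permutation p = 1).

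Chil1, a chitinase-like lectin without chitinase activity, had the lowest p-value of the members. It stood at 10122, 10533, 6062 and 4293 CPM, both A5-CKO libraries below both controls. The group means were 10328 ± 291 and 5178 ± 1251 CPM (SD, n = 2), and the log2 fold change was -0.996 (SE 0.43, edgeR adjusted p = 0.528, unadjusted p = 0.0562). Under no alternative did its direction turn, with a range of -1.28 to -0.21 on the log2 scale. Chil1 (NCBI gene 12654) spans chr1:134182156-134190031 on the plus strand with 10 exons.

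Of the proteins that withhold iron, Lcn2, which captures bacterial siderophores, stood at 3784, 3073, 2226 and 2529 CPM. The A5-CKO libraries were below the controls with a log2 fold change of -0.53 (SE 0.39, edgeR adjusted p = 0.641), and of -0.31 without Ctrl 1. Lcn2 spans chr2:32384637-32387739 on the minus strand with 6 exons, and Ltf spans chr9:111019292-111042766 on the plus strand with 17 exons. Ltf, the iron-binding lactoferrin of neutrophil granules and glandular secretions, stood at 35.1, 65.9, 29.2 and 47.8 CPM. The Ltf groups overlapped, and the replicates of each group lay further apart than the group means (log2 fold change -0.39, SE 0.42, edgeR adjusted p = 0.749). Without Ctrl 2 the Ltf value was 0.10. The summed neutrophil markers were 393, 788, 304 and 858 CPM, high in the same 2 libraries as Ltf, and 12 of 12 were detected. Their part in the Ltf values was not tested.

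Slpi, a secreted inhibitor of neutrophil elastase with antimicrobial activity, stood at 309, 149, 95.3 and 221 CPM. Its groups overlapped, with Ctrl 1 and A5-CKO 2 the high libraries (log2 fold change -0.53, SE 0.52, edgeR adjusted p = 0.721). Without Ctrl 1 the Slpi value was 0.16. Ctrl 1 and A5-CKO 2 were also high in the summed markers of transitional alveolar cells (3838, 1683, 2494 and 4108 CPM, 10 of 10 detected) and of macrophages (12 of 12 detected). Areg (39.5, 23.7, 69.0 and 69.5 CPM) and Cdkn1a (296, 139, 344 and 418 CPM) of the transitional list did not have this order, with A5-CKO 1 above Ctrl 1. All 10 transitional markers had a log2 fold change above 0 with TMM factors (median 0.24). The part of either list in the Slpi values was not tested. Slpi lies at chr2:164354070-164356507 on the minus strand, where it overlaps the microRNA gene Mir7678. The Mir7678 row held 1557, 770, 601 and 1409 counts, that is 29.8, 30.0, 28.5 and 27.2% of the Slpi counts. The share varied little between libraries, and whether reads were taken from the Slpi row or entered in both is not known.

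C3, the component on which the complement pathways meet, stood at 945, 1441, 747 and 828 CPM. Both A5-CKO libraries were below both controls, and the log2 fold change was -0.60 (SE 0.38, edgeR adjusted p = 0.594), and -0.30 without Ctrl 2. C4b, which encodes complement C4 of the classical and lectin pathways, had 139, 138, 19 and 511 counts (8.22, 8.03, 0.86 and 21.8 CPM). The A5-CKO libraries lay on either side of the controls, and the log2 fold change of 0.48 had an SE of 1.15 (edgeR adjusted p = 0.897). Without A5-CKO 2 it was -3.26, and without A5-CKO 1 it was 1.41. The summed fibroblast markers (9 of 9 detected) were 486, 230, 140 and 1066 CPM, also lowest in A5-CKO 1 and highest in A5-CKO 2. Mfap4, Inmt and Dpt of that list did not have this order, and Inmt was lowest in A5-CKO 2 (48.3, 52.7, 22.5 and 10.3 CPM). The part of the fibroblast markers in the C4b values was not tested. C4a, the close copy of C4b, had 0, 0, 4 and 1 counts. C4b therefore took 100, 100, 82.6 and 99.8% of the counts of the pair, where the A5-CKO 1 share rested on few counts (Wilson 95% interval 62.9 to 93.0%). That interval also takes every count as independent. The transcripts were 96.1% identical and shared 16.5% of their 100-base windows. The counting described by the study kept uniquely mapped reads, so reads that match both C4b and C4a may have been left out. Cfb, the serine protease of the alternative pathway that joins C3b in its convertase, had 8, 10, 4 and 15 counts.

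The low counts of Cfb and C4b cannot be read as low expression. Cfb (chr17:34856374-34862514, minus strand, 18 exons) and C4b (chr17:34728139-34743902, minus strand, 41 exons) lie in the major histocompatibility region, in which many genes that all cells use had no counts. Brd2, Rnf5, Bag6, Csnk2b, Prrc2a, Vars and Abhd16a were listed at 0 in all 4 libraries, and Lsm2 had 2 counts in each (these genes were chosen after their values were seen). Between 34 and 36 Mb of chromosome 17, 57 of 114 protein-coding genes (50%) had at most 3 counts in every library, against 27.1% of 932 on the rest of the chromosome. C3 lies elsewhere on the same chromosome (chr17:57203967-57228136, minus strand, 41 exons). The other 65 protein-coding genes within 1500 kb of C3 had a median of 507 counts, against 2 counts for the 153 around Cfb.

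**Figure D2:**
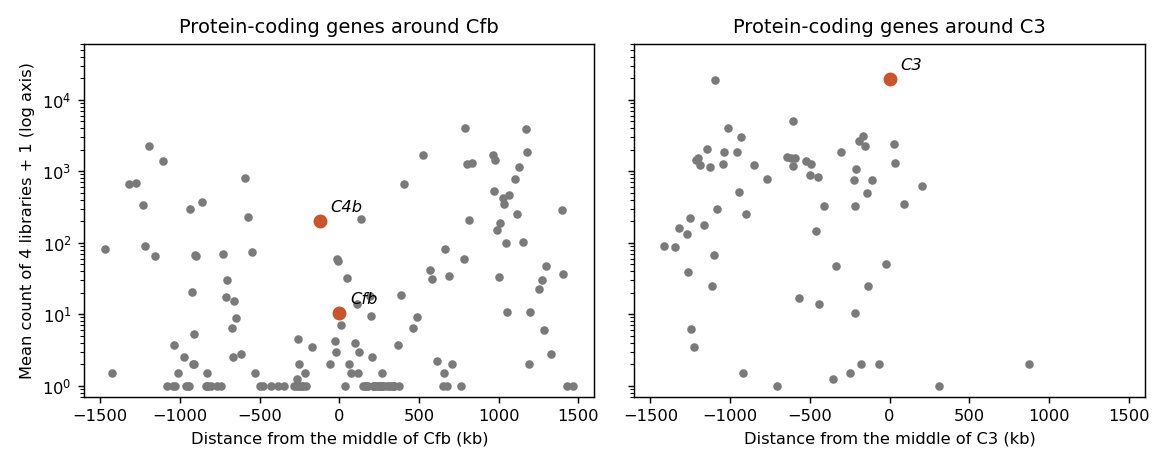
Mean count of the 4 libraries plus 1 (log axis) for protein-coding genes within 1500 kb on each side of Cfb (left) and of C3 (right), by distance from the middle of the gene, with the members in orange. Around Cfb many genes lie on the floor of the plot, which stands for 0 counts, and 32 of 153 reach a mean of 100, whereas 44 of 65 do so around C3.

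AT2 markers and the members were set side by side, because the markers also had lower values in A5-CKO. All 11 AT2 markers had a log2 fold change below 0, with a median of -0.85, and 2 of them had an unadjusted p under 0.05. Per 100 counts of these markers, a ratio added after the data were seen, Lyz2 stood at 21.6, 17.9, 20.6 and 21.3. Chil1 stood at 17.7, 12.7, 14.2 and 12.2 and Lcn2 at 6.63, 3.71, 5.20 and 7.18. The groups of Lyz2, Chil1 and Lcn2 overlapped on this scale. C3 stood at 1.65, 1.74, 1.74 and 2.35 per 100 marker counts, with A5-CKO the higher by a margin within rounding between Ctrl 2 and A5-CKO 1 (exact permutation p = 0.333, the smallest the design can give). When libraries were scaled on the markers in place of TMM, 1 of the 8 members, Chil1 at -0.21, still had a log2 fold change below 0. That scaling moved the median of all genes to 0.80 and that of the members to 0.25, since a change of scaling shifts every gene by about the same amount. With total counts only, the median of all genes was 0.30 and that of the members -0.25.

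**Figure D3:**
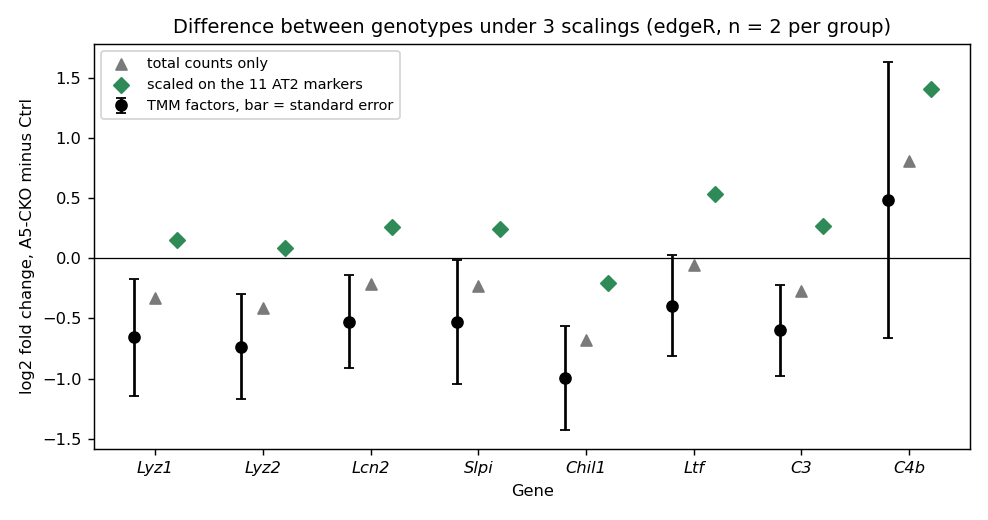
Log2 fold change (A5-CKO minus Ctrl, edgeR, n = 2 per group) of the 8 tested members with TMM factors (black, bars are standard errors), with total counts only (grey) and with scaling on the 11 AT2 markers (green). The black points lie below 0 for 7 of 8 genes and the green points for 1, Chil1.

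The likeness of 2 genes was measured as the root mean square distance between their log2 levels, each centred on its mean of the 4 libraries. Lyz2 and Chil1 were the closest pair of members, at 0.18. Among 219 member, pathway and marker genes, the one nearest to Lyz2 was Muc1, a membrane mucin, at 0.06. Chil1 was nearest to Cfap126, a ciliated cell marker, at 0.08, and then to Sftpc at 0.10. Lcn2 was nearest to Cr1l, a membrane regulator of complement, at 0.06, and C3 to Lpcat1, an enzyme of surfactant lipid synthesis, at 0.18. Lyz1 was nearest to Nkg7, a granule protein of cytotoxic lymphocytes, at 0.12, and its distance to Lyz2 was 0.33. Slpi was nearest to Wfdc18 (0.18), Ltf to Colec11 (0.18) and C4b to Fcna (0.40), which are genes of few counts. Nkg7 (80, 104, 95 and 38 counts) and Cfap126 (166, 170, 109 and 92 counts) also had few counts. With 4 libraries, such a likeness is a description and no evidence of a shared control.

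**Figure D4:**
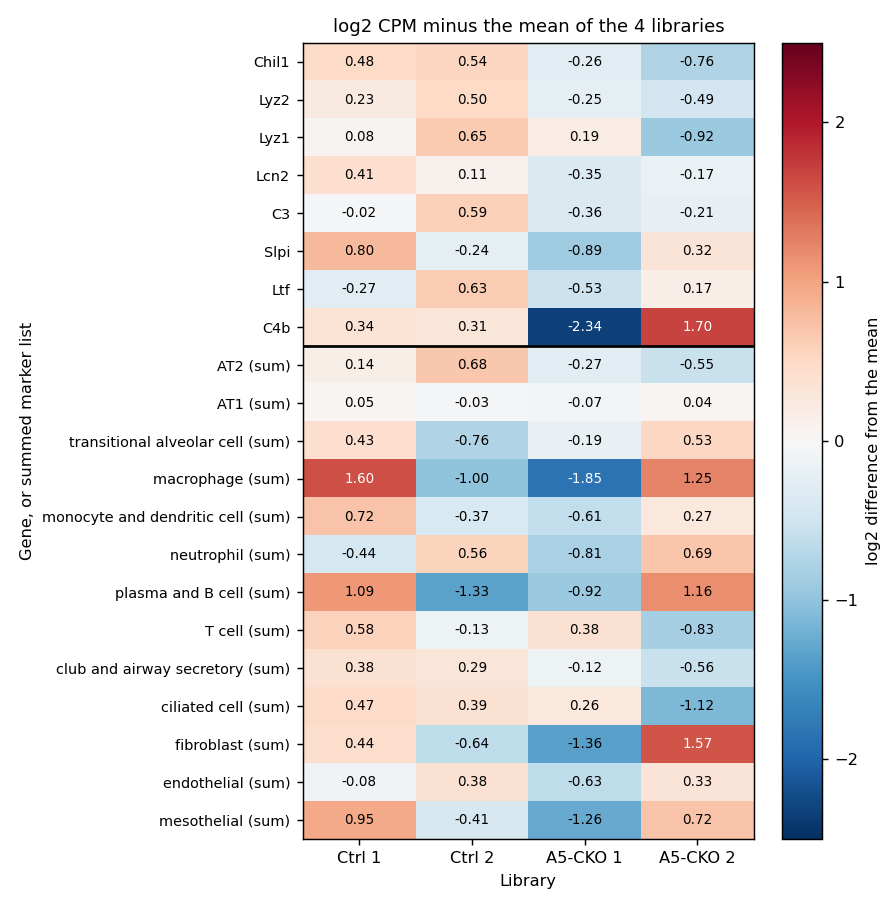
Log2 CPM minus the mean of the 4 libraries for the 8 tested members (above the line) and for the summed CPM of 13 cell type marker lists (below it), with red for higher and blue for lower. Chil1, Lyz2, Lcn2 and the AT2 sum are above their mean in both Ctrl libraries and below it in both A5-CKO libraries, while Slpi, macrophage and plasma cell values separate Ctrl 1 and A5-CKO 2 from the others.

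Genes related to the members were taken from 10 lists, with the members left out. Of 119 tested genes among 150, 49 had a higher and 70 a lower level in A5-CKO, 11 and 26 with groups that did not overlap (20.3 and 23.5% of all genes), and the median log2 fold change was -0.12. None had an edgeR adjusted p under 0.05, and 2 and 7 had an unadjusted p under 0.05 in the respective direction (4.48 and 4.71% of all genes). These directions hold with TMM factors, and scaling on the AT2 markers put the median of 9 of the 10 lists above 0. Among lysozymes and lectins, 6 of 8 were lower with a median of -0.45, Sftpa1 (-0.83) and Sftpd (-0.88), the collectins of surfactant, having the highest levels. Among cationic peptides and airway secretions, 10 of 12 were lower with a median of -0.76, for example Muc1 (-0.76), the club cell secretoglobin Scgb1a1 (-0.73) and the ribonuclease Ang (-1.08). Among antiproteases and WAP proteins, the family of Slpi, 7 of 9 were lower with a median of -0.55. Wfdc2, an epithelial WAP protein, stood at 2047, 1989, 1063 and 942 CPM (log2 fold change -1.01, SE 0.36, edgeR adjusted p = 0.528), whereas Wfdc17 had values of 90.4, 21.1, 10.1 and 63.4 CPM that overlapped.

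The chitinase-like family of Chil1 held 6 tested genes, 4 of them lower and 2 higher, with a median of -0.67. The higher ones, Chit1 (8, 4, 28 and 26 counts, log2 fold change 1.74) and Ctbs (16.3, 12.8, 18.8 and 23.5 CPM, log2 fold change 0.54), had both A5-CKO libraries above both controls. The active chitinase Chia1 stood at 484, 920, 246 and 254 CPM, both A5-CKO libraries below both controls (log2 fold change -1.49, SE 0.41, edgeR adjusted p = 0.528). Chil3, a product of alveolar macrophages, stood at 2084, 309, 112 and 1254 CPM, the order of the summed macrophage markers, a list that includes it. Of 8 other genes for sequestration of metals and vitamins, 5 were lower with a median of -0.15, and the ferritin genes Fth1 and Ftl1 had log2 fold changes of -0.49 and -0.72.

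The complement lists had medians on the other side of 0. Of 15 tested components 9 were higher (median 0.26), with the terminal components Hc and C6 both at -0.25 and overlapping. The higher ones included C1qa, C1qb and C1qc, which encode C1q, a product of macrophages, and C1qa stood at 164, 8.90, 12.2 and 203 CPM. This is the split of Ctrl 1 and A5-CKO 2 from the other libraries that the summed macrophage markers show (C1qa and C1qb are in that list), and their part in the list's median was not tested. C2 had 22, 2, 0 and 0 counts and lies in the same region as Cfb. Of 10 regulators 5 were higher (median 0.08). The clusterin gene Clu had a log2 fold change of -0.04, Cr1l of -0.55, and Cpn1, a subunit of the carboxypeptidase that trims anaphylatoxins, of -1.17 (22.8, 33.1, 14.4 and 10.4 CPM, edgeR adjusted p = 0.528). Of 9 receptors 5 were higher (median 0.42), and Calr (-0.27) and the integrin Itgb2 (-0.08) had the highest levels. The higher ones included the leukocyte receptors C3ar1 (19.2, 1.69, 1.99 and 44.2 CPM) and Itgam (44.9, 24.3, 23.5 and 92.9 CPM), both highest in A5-CKO 2 and next in Ctrl 1, the libraries high in macrophage markers, whose part was not tested. The medians with limma voom were 0.052 for components and 0.017 for receptors, and with the replicate block 0.038 and 0.021 (the C1q and receptor genes named here other than Calr and Itgb2 were chosen after their values were seen).

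Of 33 inducers and feedback genes of the NF-kB, IL-17 and STAT3 pathways, which drive Lcn2 and C3 in many tissues, 15 were higher and 18 lower (median -0.11). Rel, an NF-kB subunit, stood at 7.15, 10.2, 32.8 and 19.96 CPM, both A5-CKO libraries above both controls (log2 fold change 1.599, SE 0.44, edgeR adjusted p = 0.528). Tnfaip3, an inhibitor of NF-kB signalling that is itself induced by it, stood at 36.6, 32.1, 116 and 65.1 CPM (log2 fold change 1.40, SE 0.36, edgeR adjusted p = 0.528). Il17rc, a subunit of the IL-17 receptor, had lower values at 82.3, 63.5, 46.3 and 34.7 CPM (log2 fold change -0.85). Stat3 (-0.25) and Cd14 (-0.08) had the highest levels of the list and overlapped. Of 11 receptors and partners of the members 6 were higher (median 0.07). Tmem219, a receptor partner for Chil1, stood at 40.3, 37.2, 23.3 and 22.9 CPM (log2 fold change -0.75, edgeR adjusted p = 0.528), and Itih1, a heavy chain of the inter-alpha-trypsin inhibitor, at 27.1, 51.0, 19.3 and 9.02 CPM (log2 fold change -1.46, edgeR adjusted p = 0.528). Lrp2, an endocytic receptor for Lcn2, had a log2 fold change of 0.09 and Anxa2 of -0.07.

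**Figure D5:**
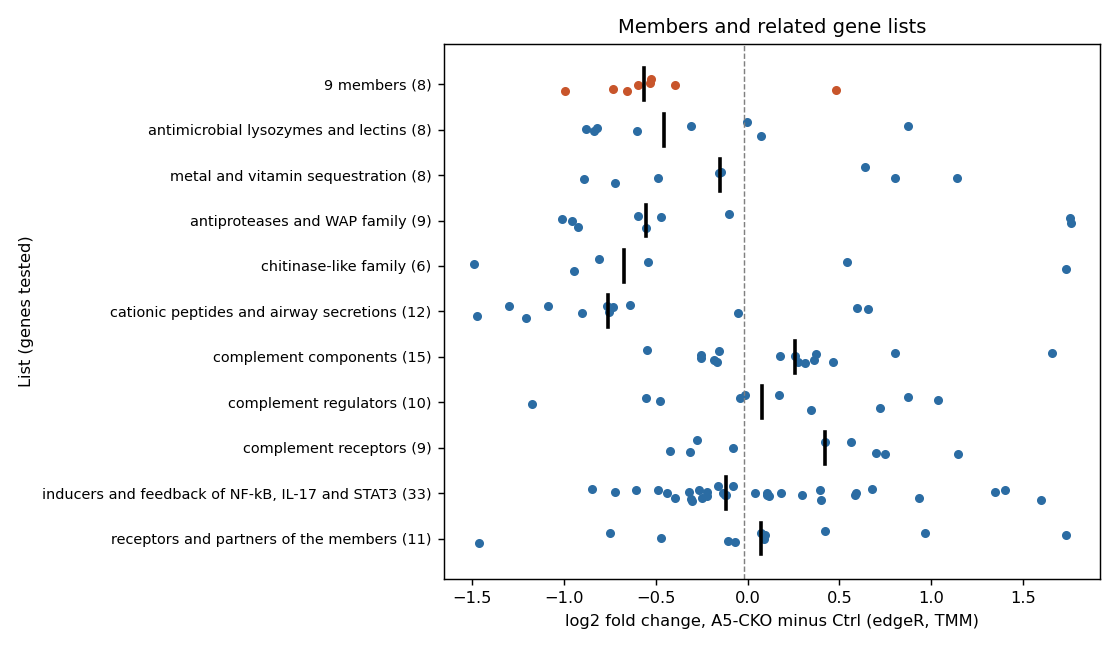
Log2 fold change (A5-CKO minus Ctrl, edgeR with TMM) of each tested gene in the members' group (orange) and in 10 related lists (blue), with the number of genes tested in brackets, black bars for medians and a dashed line for the median of all genes. The medians run from -0.76 for cationic peptides and airway secretions to 0.42 for complement receptors, and single genes spread widely around them.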

How the data were processed

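RNA-seq counts of GFP+ AT2 cells from 2 Ctrl and 2 A5-CKO libraries were used. Per the labels and the study's methods, the authors trimmed reads with Trim Galore 0.6.10 and aligned them with HISAT2 2.2.1 to mm10. They kept uniquely mapped reads, removed duplicates and deposited raw counts per gene made with featureCounts 2.0.3. That counting, with its limit to uniquely mapped reads, is described for the companion m6A libraries and was taken to hold for RNA-seq. Whether strand was used is not given in the sources used here. Removal of duplicates without molecular identifiers can lower the counts of abundant genes such as Lyz2. The labels number the libraries as replicates, and whether each came from a separate mouse is not given in the sources used here. The p-values measure the spread between these samples.

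Counts were tested with edgeR 4.0.16 (filterByExpr, TMM, quasi-likelihood test) over 16661 genes with Benjamini-Hochberg adjustment, in R 4.3.3. Ratios were compared by a two-sided exact permutation test. With 3 counts as floor, the depth allowed levels down to 0.128 to 0.177 CPM. DESeq2 1.42.0, limma 3.58.1 voom, other scalings and filters, and each library left out were alternatives. Scaling on AT2 markers, the correction for length and GC content, and the crossed block were added after seeing the data. Transcripts and positions came from GENCODE M21 and promoters from RefSeq (GRCm38.p6). The fit was tested on simulated data. The members and lists were chosen with earlier results of these data known. The text names all members, the 2 most abundant other genes of each list, genes of a list with an unadjusted p under 0.05 and groups that do not overlap, C4a, Alkbh5 and the nearest gene to each member. Some further genes are named to show the spread within a list and were chosen after their values were seen.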

Additional observations from a re-analysis of the deposited data

How the results depend on the processing

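With 2 libraries a group, no member passed an adjusted p of 0.05 under any setting run with edgeR, DESeq2 or limma. The lowest adjusted p was 0.103 for Chil1. Scaling on the AT2 markers turned Lyz1 (0.15), Lyz2 (0.087), Lcn2 (0.26), Slpi (0.24), Ltf (0.53) and C3 (0.27) above 0. Among genes with an unadjusted p under 0.05, the share above 0 was 48.8% with TMM, 66.8% with upper-quartile factors and 90.9% with total counts. Scaling on the AT2 markers gave 3767 such genes in place of 1530, 99.4% of them above 0. Its list medians were 0.26 for lysozymes and lectins, 0.78 for metal and vitamin sequestration, 0.10 for the chitinase-like family, -0.0183 for cationic peptides and airway secretions, 1.02 for complement components, 0.88 for regulators, 1.26 for receptors, 0.73 for inducers and 0.79 for receptors and partners. This follows from the lower marker sums of A5-CKO.

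C4b turned below 0 with limma voom (-0.86) and with the replicate block (-0.82). Deviations of same-numbered libraries correlated at -0.363 over genes, and whether the replicate numbers pair the libraries is not given in the sources used here. The replicate block gave 754 genes with an unadjusted p under 0.05. The crossed replicate block paired Ctrl 1 with A5-CKO 2 and Ctrl 2 with A5-CKO 1. It was added after seeing the data, because of the negative correlation of same-numbered libraries, so its calls are no separate evidence. It gave 2582 of 16661 genes with an unadjusted p under 0.05, Lyz1, Lyz2 and Chil1 among them. At an adjusted p under 0.05 it gave 230 genes, none of them a member. The log2 fold change of C4b was -0.74 with this block. At an adjusted p under 0.05 DESeq2 called 55 genes after the edgeR filter and 59 under its own.

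The median of the inducers was -0.0675 with DESeq2, -0.0674 with RLE factors, -0.0686 with at least 10 counts in every library, -0.0132 with upper-quartile factors, 0.21 with total counts and 0.0123 with the length and GC correction. That correction gave -0.0373 for lysozymes and lectins and -0.60 for cationic peptides and airway secretions. Lysozymes and lectins stood at 0.0189 with DESeq2's default filtering and -0.0334 with no filter, and complement regulators at -0.38 and -0.43. Total counts gave -0.47 for cationic peptides and airway secretions and 0.39 for complement regulators. On TMM-scaled CPM the members' share differed by -1.28 in place of -0.75 percentage points.

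Leaving out 1 library, genes with an unadjusted p under 0.05 numbered 746 to 1668, fewest when A5-CKO 1 was left out, Slpi from -1.29 to 0.16 (without Ctrl 1), Ltf from -0.82 to 0.10 (without Ctrl 2) and C4b from -3.26 (A5-CKO 2 left out) to 1.41 (A5-CKO 1 left out). List medians ran from -0.76 to 0.24 for lysozymes and lectins, -0.86 to 0.36 for metal and vitamin sequestration, -1.20 to 0.77 for antiproteases, -1.13 to 1.01 for the chitinase-like family, -0.94 to -0.66 for cationic peptides and airway secretions, -0.86 to 0.79 for complement components, -0.44 to 0.39 for regulators, -0.77 to 0.84 for receptors, -0.17 to 0.0875 for inducers and -0.40 to 0.25 for receptors and partners. The difference in the Lyz1 share ran from -2.81 to 3.48 and in the C4b share from -17.4 to -0.195 percentage points, in the log2 ratio of Cfb to C3 from -0.89 to 0.78 and of C4b to C3 from -2.60 to 1.92, and in the members' share from -0.921 to -0.575 percentage points. The cause of these shifts was not tested.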
